A study of Mus musculus with 6 samples.

Results

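Described here are 10 genes of the circadian clock in mouse bladder tumor organoids: the repressors Nr1d1, Nr1d2, Per1, Per2, Per3, Cry1 and Cry2, the output factors Dbp and Tef, and the activator Arntl. They are 10 of 51912 gene IDs in the deposited table, matched by symbol in GENCODE M21, and 9 of them were among the 9287 genes tested. The set was selected on values of the comparison between SRT1720 and Vehicle in these same libraries, in which Nr1d1 stood out as low. The differences between the groups in these 10 genes are therefore a description, and no p-value is attached to them.

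The organoids, 3-dimensional cultures of tumor cells, came from C57BL/6 mice and were profiled by bulk RNA sequencing. The SRT1720 group (3 libraries) was exposed to SRT1720, a compound developed to activate SIRT1, an NAD-dependent deacetylase, and the Vehicle group (3 libraries) to vehicle. The sources used here give no dose, duration, hour of collection or number of mice, and do not say whether replicates were separate cultures. Any p-value therefore reflects how far these particular libraries spread, and that spread may be technical.

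In the mammalian clock, the heterodimer of CLOCK and BMAL1 (the product of Arntl) binds E-box sequences and activates the Per and Cry genes, whose products return to repress it. A second loop runs through REV-ERBα and REV-ERBβ, the nuclear receptors encoded by Nr1d1 and Nr1d2, which repress Arntl from ROR response elements that ROR receptors otherwise activate. Dbp and Tef encode PAR bZIP factors, which are driven from E-boxes and pass the rhythm on to genes with D-box sequences. Most cell types hold such a clock, and in culture the cells of a dish drift out of step unless a signal such as a change of serum sets them together, so a bulk level averages over cells in different phases.

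Levels are given as TPM, the name the deposited table uses, for which reads were divided by a gene length and by library depth. Reads recovered from those values numbered 18159660 to 22723278 per library, and each of the 10 genes rested on 38 to 3345 reads in a library. The libraries of a group were unlike each other. Krt5, a keratin of basal epithelium, was at 16.4 TPM in SRT1720 1 and 9.61 TPM in Vehicle 2, and at 425 to 1120 TPM in the other 4 libraries. Deviations from the group means correlated between SRT1720 1 and Vehicle 2 (r = 0.72 across 9287 genes of the same libraries), between SRT1720 2 and Vehicle 1 (r = 0.68) and between SRT1720 3 and Vehicle 3 (r = 0.79). The epithelial markers Epcam and Cdh1 were at 69.4 to 191 TPM and 14.5 to 56.5 TPM. Of the 4 uroplakins listed, which mark urothelium, Upk1b was at 0.66 to 12.1 TPM and Upk1a at 0.26 to 1.34 TPM over the 6 libraries. Upk2 did not exceed 0.419 TPM, and Upk3a was listed at 0 in every library. Of 8 fibroblast, 6 endothelial and 6 smooth muscle markers, 0 reached a mean of 1 TPM, and of 8 leukocyte markers 2 did, Lyz2 and Cd68. Cd68, a macrophage gene, was at 0.73 to 1.31 TPM with SRT1720 and 1.45 to 3.09 TPM with vehicle, without overlap. In every other listed leukocyte gene the groups overlapped. Lyz2, Csf1r and Itgam were highest in SRT1720 2 and Vehicle 1, where Cd68 was lowest in each group. The part of Cd68 in the results was not tested. The fibroblast list summed to 0.0708 to 2.81 TPM with SRT1720 and 0.225 to 4.18 TPM with vehicle, and the leukocyte list to 1.04 to 11.5 TPM and 1.94 to 16.1 TPM. The highest of these were SRT1720 2 and Vehicle 1 for both lists. Most of the leukocyte sum there was Lyz2, at 10.5 TPM in SRT1720 2 and 14.3 TPM in Vehicle 1, from 111 and 158 reads. It was at 0 in the other libraries. The length behind its values was 188 bases, against 1316 merged exon bases in GENCODE M21, which raises its TPM. The leukocyte genes Ptprc and Cd3e did not exceed 0.013 TPM in any library. Endothelial markers summed to at most 0.0414 TPM in a library, and smooth muscle markers to at most 0.3 TPM except in Vehicle 3, at 4.34 TPM.

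Of the 10 clock genes, 9 had lower mean log2 levels with SRT1720 and 1, Arntl, a higher one. Over all 9287 genes tested 4194 had lower ones. In 7 genes all 3 SRT1720 libraries lay below all 3 Vehicle libraries: Nr1d1, Nr1d2, Dbp, Tef, Per2, Per3 and Cry1. The groups overlapped in Per1, Cry2 and Arntl. Among the 9 members tested, 6 were lower without overlap, and the share over all 9287 genes was 7.75%. Because the members were chosen on this contrast, these shares and counts are given without reading them. By limma with Benjamini-Hochberg adjustment 0 of the 9287 genes passed (0%), and so 0 of the 9 members. Without adjustment 1153 genes (12.4%) had a p under 0.05, and voom on the recovered reads called 0 genes, with 1127 under 0.05 before adjustment. The log2 differences of the 10 genes ran from −1.68 to 0.32 with a median of −0.72, and the median over all genes tested was 0.04. In bulk RNA, fewer cells of a type and less RNA per cell cannot be told apart.

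**Figure D1:**
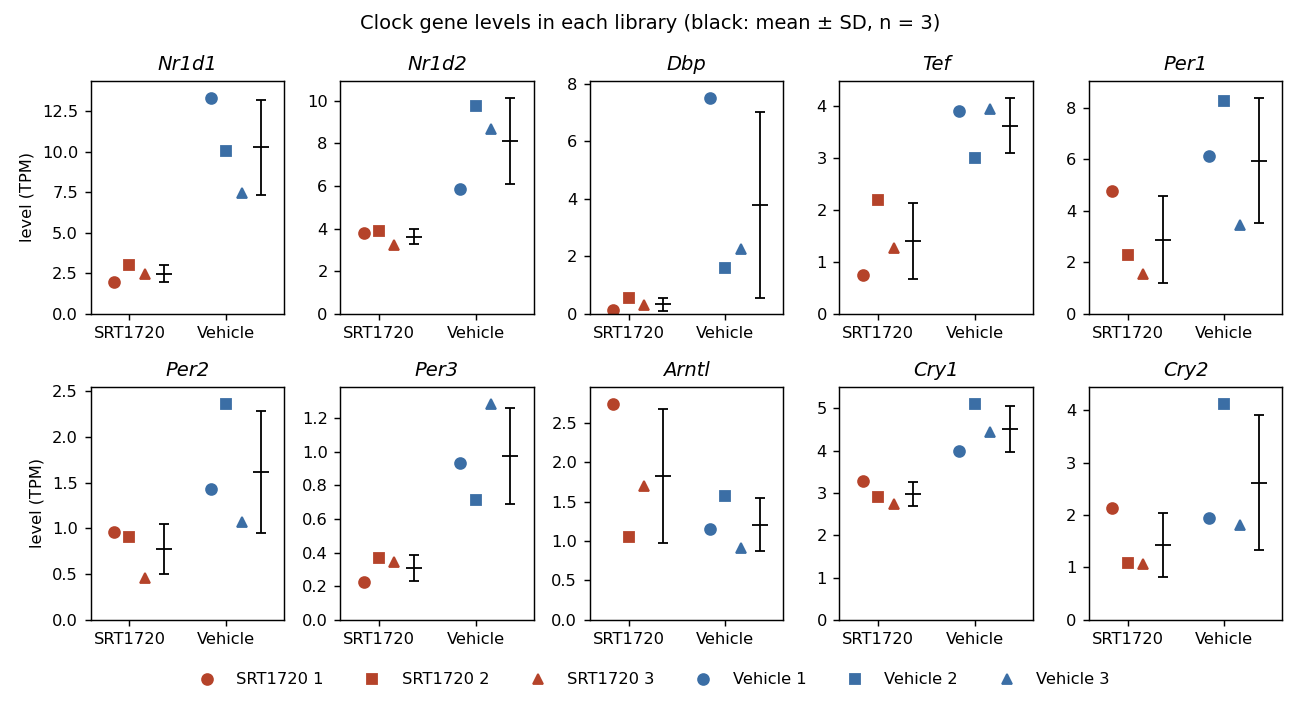
Level of each of the 10 clock genes in TPM (y axis, linear from 0, a scale per gene) in the SRT1720 and Vehicle libraries (x axis), with 1 point per library and the mean ± SD of 3 libraries in black. The groups are separate for Nr1d1, Nr1d2, Dbp, Tef, Per2, Per3 and Cry1, and overlap for Per1, Arntl and Cry2.

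The sequences just upstream of the starts of 6 of the genes are shown because E-boxes, D-boxes and ROR elements are the sites through which the clock factors act on each other. They are the 250 bases before the RefSeq start (GRCm38.p6), 5′ to 3′ on the strand of the gene, with matches to the motifs in capitals. A promoter was listed for 9 of the 10 genes, 12 promoters in all, and Per2 is named only.
Nr1d1, chr11:98775378-98775627, minus strand: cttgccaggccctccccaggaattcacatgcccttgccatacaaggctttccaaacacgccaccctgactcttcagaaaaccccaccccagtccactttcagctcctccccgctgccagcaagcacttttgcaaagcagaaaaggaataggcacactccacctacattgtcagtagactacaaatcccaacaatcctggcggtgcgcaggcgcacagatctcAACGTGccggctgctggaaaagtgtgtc
Nr1d2, chr14:18239107-18239356, minus strand: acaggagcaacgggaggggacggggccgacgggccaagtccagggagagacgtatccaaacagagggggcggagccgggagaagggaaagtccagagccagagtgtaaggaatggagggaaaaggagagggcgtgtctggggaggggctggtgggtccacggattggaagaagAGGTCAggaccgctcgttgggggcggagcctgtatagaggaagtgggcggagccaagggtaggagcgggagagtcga
Tef, chr15:81811164-81811413, plus strand: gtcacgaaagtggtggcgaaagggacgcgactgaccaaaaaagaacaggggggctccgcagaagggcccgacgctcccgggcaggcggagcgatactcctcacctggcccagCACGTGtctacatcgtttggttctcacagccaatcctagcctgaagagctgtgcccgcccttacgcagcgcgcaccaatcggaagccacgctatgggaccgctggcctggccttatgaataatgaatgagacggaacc
Per1, chr11:69098699-69098948, plus strand: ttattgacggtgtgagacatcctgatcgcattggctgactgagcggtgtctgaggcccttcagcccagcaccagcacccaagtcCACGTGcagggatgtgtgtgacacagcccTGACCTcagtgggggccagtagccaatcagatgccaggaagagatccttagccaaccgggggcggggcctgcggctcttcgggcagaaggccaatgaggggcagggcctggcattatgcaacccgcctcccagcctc
Per3, chr4:151044666-151044915, minus strand: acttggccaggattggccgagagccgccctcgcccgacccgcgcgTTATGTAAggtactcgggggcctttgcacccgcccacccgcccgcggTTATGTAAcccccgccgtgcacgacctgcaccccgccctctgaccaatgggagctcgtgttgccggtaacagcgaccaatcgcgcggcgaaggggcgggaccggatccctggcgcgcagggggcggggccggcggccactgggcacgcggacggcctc
Cry1, chr10:85185055-85185304, minus strand: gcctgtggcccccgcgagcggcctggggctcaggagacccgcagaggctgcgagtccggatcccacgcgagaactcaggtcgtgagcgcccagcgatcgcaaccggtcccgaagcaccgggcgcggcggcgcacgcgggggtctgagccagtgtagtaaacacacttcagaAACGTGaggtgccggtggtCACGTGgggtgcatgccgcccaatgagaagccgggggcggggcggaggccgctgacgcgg

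The motifs searched on both strands were the E-box CACGTG, the E′-box CACGTT, the D-box TTATGTAA and its palindrome TTACGTAA, the ROR half-site AGGTCA and the cAMP response element TGACGTCA. None of these 6 contains another. The E-box occurred in promoters of 3 of the 9 genes, Per1, Cry1 and Tef. By promoter it was in 4 of the 12, against 6.02% of all 32851 promoters of the same length. It began 166 bases before the start in Per1, 60 in Cry1, and 127 and 138 in the 2 promoters of Tef, of which the downstream one is printed. The E′-box was found in Nr1d1 (28 bases before the start), Cry1 (79) and Cry2 (166), against 3.85% of all promoters. Per3 held the D-box at 205 and 158 bases before its start, a motif found in 0.819% of promoters. The ROR half-site stood in Nr1d2 (77 bases before the start) and Per1 (137), against 14% of promoters. The palindrome and the cAMP response element, found in 0.113% and 1.55% of promoters, matched none of the 12. Every printed window holds a match, whereas the Dbp window, both Arntl windows and the Per1 window not printed hold none. A match describes the letters in these windows and is not a measured binding site. Only the exact letters of these motifs were searched, and only within these windows. The lack of a match, as in Arntl, therefore does not show that a gene has no such site. Of the printed windows, 21 bases in Nr1d2, 10 in Cry1 and 1 in Per1 lie in exons annotated by GENCODE, and 0 in the other 3. The bases after the RefSeq start of Nr1d1 were not found as an unbroken stretch in a GENCODE transcript of the gene. Those of the other printed windows were.

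Nr1d1 encodes REV-ERBα, the main repressor of Arntl. It measured 1.95, 3.03 and 2.43 TPM in SRT1720 libraries 1, 2 and 3, compared with 13.3, 10.1 and 7.46 TPM in Vehicle libraries 1, 2 and 3. Every SRT1720 library was below every Vehicle library, and the lowest Vehicle value was 2.46 times the highest SRT1720 value. The means were 2.47 ± 0.54 TPM and 10.3 ± 2.93 TPM (SD, n = 3 each), a 4.16-fold difference and a log2 difference of −1.68 (SE 0.23) computed as log2(TPM + 1), where adding 1 shrinks the differences of weakly expressed genes. The reads behind these values were 369, 599 and 469 with SRT1720 and 2747, 1664 and 1345 with vehicle. Among the 9287 tested genes ordered from the most negative log2 difference, Nr1d1 was number 4.

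Nr1d1 (ENSMUSG00000020889) lies on the minus strand of chromosome 11, from 98767932 to 98775333 on GRCm38. Of its 3077 exon bases, 263 are shared with exons of Thra, the thyroid hormone receptor gene on the opposite strand. The sources used here do not say whether the counting used strand, so reads in the shared bases cannot be assigned. Thra measured 0.868, 1.36 and 2.15 TPM in SRT1720 libraries 1, 2 and 3, compared with 3.69, 2.52 and 3.24 TPM in Vehicle libraries 1, 2 and 3, also with no overlap. Thra had 293 to 740 reads with SRT1720 and 742 to 1359 with vehicle. The part that shared bases have in the difference of either gene was not tested.

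Nr1d2, the gene of REV-ERBβ, which overlaps REV-ERBα in its targets, was at 3.78, 3.86 and 3.23 TPM with SRT1720 and 5.86, 9.77 and 8.68 TPM with vehicle. The groups did not overlap, and the SRT1720 libraries lay close together. The means were 3.62 ± 0.35 and 8.11 ± 2.02 TPM, 2.24-fold apart, with a log2 difference of −0.95 (SE 0.2). Within each library, Nr1d1 stood at 0.515 to 0.786 times Nr1d2 in the SRT1720 libraries and at 0.859 to 2.27 times in the Vehicle libraries.

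Dbp encodes the PAR bZIP factor DBP, a direct E-box target whose rhythm is among the steepest of the clock genes. It measured 0.119, 0.546 and 0.304 TPM in SRT1720 libraries 1, 2 and 3, compared with 7.49, 1.6 and 2.26 TPM in Vehicle libraries 1, 2 and 3. No SRT1720 library reached a Vehicle library, and Vehicle 1 stood far above the other Vehicle libraries. The means were 0.323 ± 0.21 and 3.78 ± 3.23 TPM, 11.7-fold apart. The log2 difference was −1.66 (SE 0.43) and became −1.15 without Vehicle 1. With a pseudocount of 0.1 it was −3.02, and −3.46 in log2 CPM of recovered reads, since a pseudocount of 1 exceeds every SRT1720 value of this gene. SRT1720 1 held 38 Dbp reads (95% exact Poisson interval 26.9 to 52.2, counting error only), SRT1720 2 and 3 held 182 and 99, and the Vehicle libraries 2613, 445 and 689. Of the 2993 exon bases of Dbp, 539 are shared with the opposite-strand gene Sphk2. Sphk2 was at 1.22 to 2.35 TPM with SRT1720 and 1.34 to 2.29 TPM with vehicle, so the groups overlapped there.

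Tef, the second PAR bZIP gene, was at 0.75, 2.19 and 1.26 TPM with SRT1720 and 3.9, 3 and 3.94 TPM with vehicle, again with no overlap. SRT1720 1 was the lowest library for both Dbp and Tef. The means of Tef were 1.4 ± 0.73 and 3.62 ± 0.53 TPM, 2.58-fold apart, with a log2 difference of −0.98 (SE 0.24). Within each library, Dbp stood at 0.158 to 0.249 times Tef in the SRT1720 libraries and 0.531 to 1.92 times in the Vehicle libraries. Hlf, the third gene of this family, was at 0.032 to 0.165 TPM with SRT1720 and 0.204 to 0.336 TPM with vehicle, without overlap but below the level needed for testing, and is named after its values were seen. Dbp lies on chromosome 7 from 45705088 to 45710203 and Tef on chromosome 15 from 81802421 to 81826863.

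**Figure D2:**
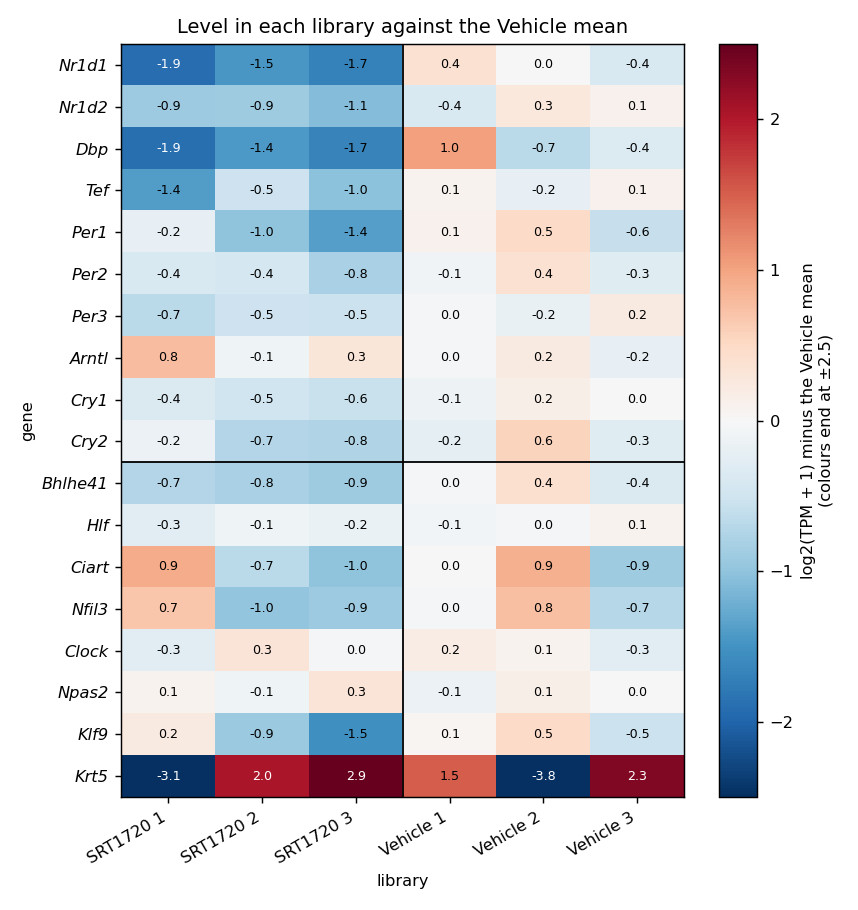
Level of each gene (y axis) in each library (x axis) as log2(TPM + 1) minus the mean of the 3 Vehicle libraries, for the 10 clock genes above the line and for other clock-related genes and Krt5 below it. Nr1d1 and Dbp are below the Vehicle mean by at least 1.4 in all SRT1720 libraries, whereas Ciart and Nfil3 are high in SRT1720 1 and Vehicle 2, the libraries low in Krt5.

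The 3 Period genes encode the repressor subunits that limit CLOCK and BMAL1. Per1, which also answers quickly to serum, cAMP and glucocorticoids, measured 4.77, 2.29 and 1.56 TPM in SRT1720 libraries 1, 2 and 3, compared with 6.11, 8.28 and 3.44 TPM in Vehicle libraries 1, 2 and 3. The groups overlapped, because SRT1720 1 exceeded Vehicle 3. The means were 2.87 ± 1.68 and 5.94 ± 2.42 TPM, with a log2 difference of −0.87 (SE 0.38). Per2, the Period gene most closely tied to the core oscillation, was at 0.961, 0.901 and 0.458 TPM with SRT1720 and 1.43, 2.36 and 1.07 TPM with vehicle. Its groups were separate by a small margin, the lowest Vehicle value being 1.11 times the highest SRT1720 value. The means of Per2 were 0.773 ± 0.27 and 1.62 ± 0.66 TPM, 2.09-fold apart, and the log2 difference was −0.55 (SE 0.22), or −0.35 without Vehicle 2.

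Per3, which is dispensable for the core rhythm and carries D-boxes in its promoter, was at 0.222, 0.365 and 0.345 TPM with SRT1720 and 0.931, 0.714 and 1.28 TPM with vehicle. The groups did not overlap. The means were 0.311 ± 0.08 and 0.975 ± 0.29 TPM, 3.14-fold apart, from 197 to 337 reads with SRT1720 and 552 to 1081 with vehicle. Per3 had a mean of 0.643 TPM over the 6 libraries and was the member left out by the filter of 1 TPM. Its log2 difference was −0.58 (SE 0.15, from the fit with no filter), −1.37 with a pseudocount of 0.1 and −1.64 in log2 CPM of recovered reads. The Period genes lie on chromosome 11 (Per1, 69095217 to 69109960), chromosome 1 (Per2, 91415982 to 91459324) and chromosome 4 (Per3, 151003652 to 151044665).

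The cryptochromes, which form the repressor complex with the Period proteins, differed from each other in whether the groups overlapped. Cry1, the stronger repressor of the pair, was at 3.28, 2.91 and 2.74 TPM with SRT1720 and 4, 5.09 and 4.43 TPM with vehicle. All SRT1720 values were below all Vehicle values. The means were 2.98 ± 0.27 and 4.51 ± 0.55 TPM, 1.52-fold apart, with a log2 difference of −0.47 (SE 0.14). Cry2 was at 2.13, 1.09 and 1.06 TPM with SRT1720 and 1.95, 4.11 and 1.8 TPM with vehicle, and the groups overlapped. The means of Cry2 were 1.43 ± 0.61 and 2.62 ± 1.29 TPM, and the log2 difference of −0.55 (SE 0.29) was −0.27 without Vehicle 2. Cry1 lies on chromosome 10 from 85131700 to 85185064 and Cry2 on chromosome 2 from 92403646 to 92434043.

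Arntl, which encodes the activator BMAL1 and peaks in antiphase to Nr1d1 in a running clock, was the member with a higher mean with SRT1720. It measured 2.73, 1.04 and 1.7 TPM in SRT1720 libraries 1, 2 and 3, compared with 1.15, 1.57 and 0.913 TPM in Vehicle libraries 1, 2 and 3. SRT1720 2 was lower than both Vehicle 1 and Vehicle 2, so the groups overlapped. The means were 1.83 ± 0.85 and 1.21 ± 0.33 TPM, and the log2 difference of 0.32 (SE 0.24) was 0.1 without SRT1720 1, 0.53 without SRT1720 2 and 0.04 with library weights. Set against Arntl within each library, Nr1d1 stood at 0.713, 2.9 and 1.43 times Arntl in SRT1720 1, 2 and 3 and at 11.6, 6.44 and 8.17 times in Vehicle 1, 2 and 3. The highest ratio with SRT1720 was thus below the lowest with vehicle. Nr1d1 was chosen on this contrast, so that separation is not a result apart from the level of Nr1d1. The ratios of Nr1d1 to Nr1d2 and of Dbp to Tef are likewise descriptions only. Arntl lies on chromosome 7 from 113207465 to 113314126.

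By mean level per length, the order in the Vehicle libraries was Nr1d1, Nr1d2, Per1, Cry1, Dbp, Tef, Cry2, Per2, Arntl and Per3. With SRT1720 it was Nr1d2, Cry1, Per1, Nr1d1, Arntl, Cry2, Tef, Per2, Dbp and Per3. The ranges over 3 libraries overlapped in all 9 pairs of neighbours in each order, so by their ranges neighbours did not differ beyond their spread. Compared within libraries, 2 of the 9 pairs kept their order in every library of a group. These were Nr1d2 above Cry1 and Per2 above Dbp with SRT1720, and Cry2 above Per2 and Per2 above Arntl with vehicle. The lengths behind the deposited values were 1.04 to 1.98 times the merged exon length in GENCODE M21, and the factor was largest for Dbp. Rescaled to merged exons, mean Dbp with vehicle was 7.48 TPM and mean Tef 6.27 TPM, numbers 4 and 5 in that order, ahead of Cry1 at 5.55 TPM, and Per3 came before Arntl. With SRT1720, Per1 at 4.37 TPM then came before Nr1d2 at 4.25 TPM, and Tef at 2.43 TPM moved from number 7 to number 5. Fold differences in TPM between groups within a gene do not depend on this length. The log2(TPM + 1) differences and the filter of 1 TPM do.

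The members also varied within groups in ways that the choice of genes did not use. In the Vehicle group 6 of the 10 were highest in Vehicle 2, namely Nr1d2, Per1, Per2, Arntl, Cry1 and Cry2. In the SRT1720 group Per1, Per2, Arntl, Cry1 and Cry2 were highest in SRT1720 1, and Nr1d1, Nr1d2, Dbp, Tef and Per3 in SRT1720 2. SRT1720 1 and Vehicle 2 are the libraries low in Krt5, and the part of the keratin state in these levels was not tested. The comparisons that follow, unlike the above, are parts of the contrast on which the genes were chosen. Their shares are therefore given without reading them. Set side by side, SRT1720 1 was below Vehicle 2 in 9 of the 10 genes, all but Arntl, and in 40.6% of all 9287 genes tested. Nr1d1 was 5.17-fold and Dbp 13.4-fold lower there. In the other 4 libraries the same 9 genes, of which Per3 was not tested, were lower with SRT1720 without overlap, as were 21% of all genes tested. In those libraries the log2 differences were −1.56 for Nr1d1 and −1.89 for Dbp.

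**Figure D3:**
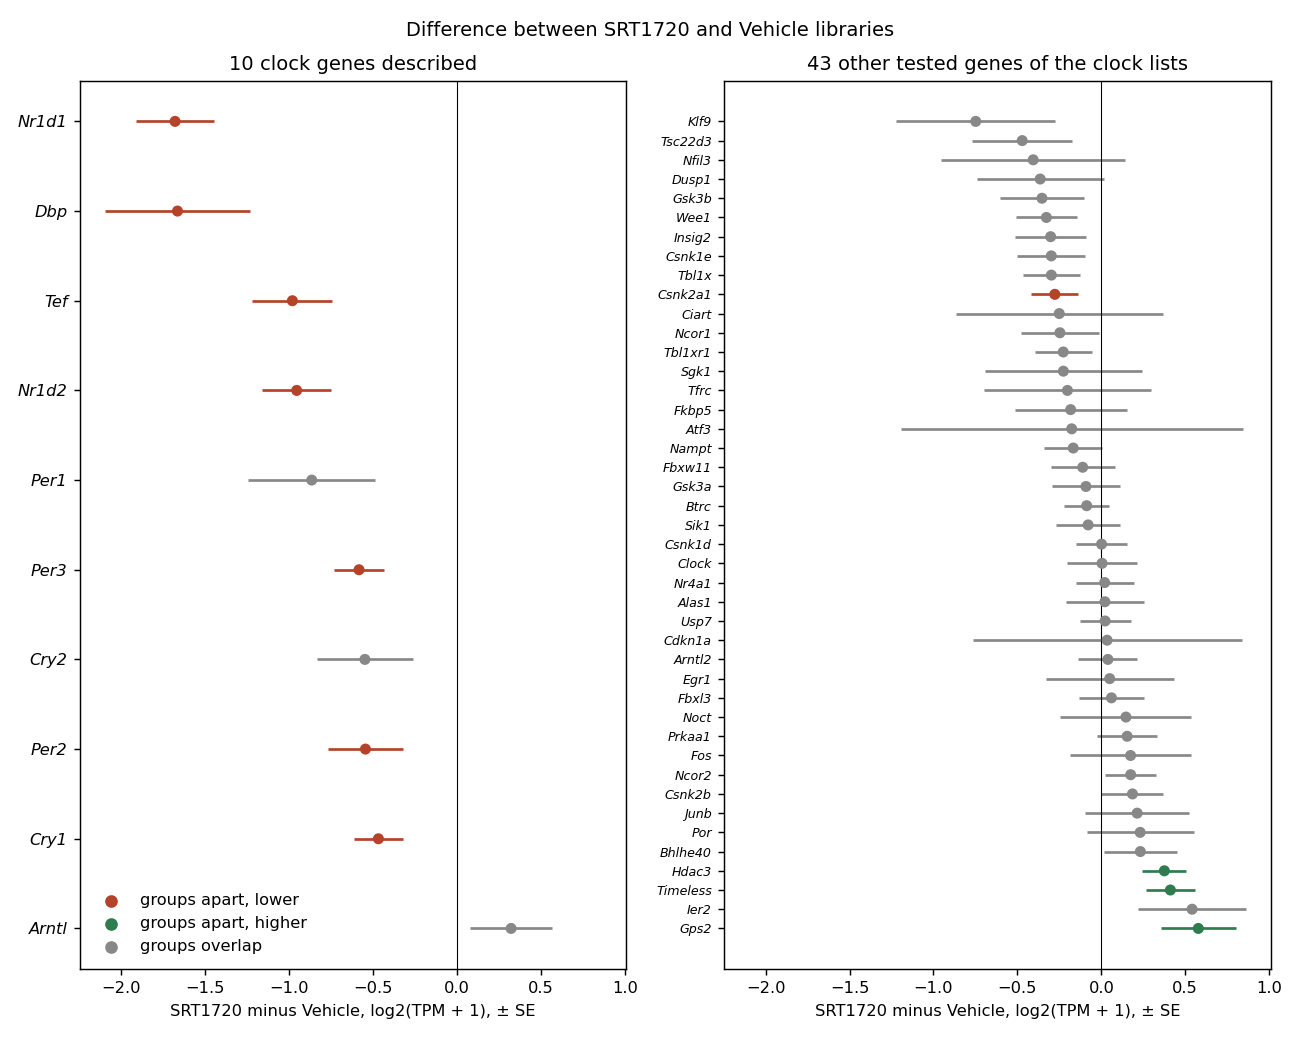
Difference between SRT1720 and Vehicle on the log2(TPM + 1) scale (x axis, points ± SE) for the 10 clock genes (left) and for 43 other tested genes of the clock lists (right), coloured by whether the groups were apart. On the left 9 of 10, chosen on this contrast, lie below 0, and on the right 22 of 43. Of all 9287 genes tested, 4194 were below 0.

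Other genes of the clock and its surroundings were taken from 7 lists holding 58 genes, of which 43 were tested. By limma with Benjamini-Hochberg adjustment 0 of the 43 passed, 3 had an unadjusted p under 0.05, and voom on recovered reads also called 0. Of the 43, 3 were higher without overlap, where the share over all genes was 12.1%, and 1 was lower without overlap, where it was 7.75%. Their median log2 difference was −0.08, with 21 above 0 and 22 below. Over all genes tested 5093 were above 0 and 4194 below. The groups overlapped in both tested activators. Clock, the partner of BMAL1, was at 2.33 ± 0.72 and 2.3 ± 0.53 TPM, and Arntl2, a paralog of Arntl, at 1.51 ± 0.28 and 1.46 ± 0.45 TPM (log2 difference 0.04, SE 0.18, adjusted p = 0.956). Of the 6 genes in the list of activators and ROR receptors, 2 were tested, and Npas2 and Rora had means of at most 0.319 TPM in either group.

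Among the other repressors and PAR bZIP genes, 4 of 6 were tested. Timeless, which also acts at replication forks, was at 1.9 ± 0.37 with SRT1720 and 1.17 ± 0.1 TPM with vehicle, without overlap (log2 difference 0.41, SE 0.15, adjusted p = 0.355). Ciart, a repressor of CLOCK and BMAL1, measured 4.79, 0.91 and 0.522 TPM in SRT1720 libraries 1, 2 and 3, compared with 2.06, 4.65 and 0.64 TPM in Vehicle libraries 1, 2 and 3. Nfil3, a repressor that competes with PAR bZIP factors for D-boxes and is itself repressed by REV-ERB, was at 13.5, 3.52 and 3.8 TPM and at 7.79, 14.2 and 4.48 TPM. Both genes were highest in SRT1720 1 and Vehicle 2, and their groups overlapped. Bhlhe41 (DEC2), an E-box repressor driven by the clock, was named after its values were seen, since its mean was under 1 TPM. It was at 0.269, 0.202 and 0.15 TPM with SRT1720 and 1.06, 1.8 and 0.637 TPM with vehicle, also without overlap, while its paralog Bhlhe40 overlapped, at 3.38 to 4.02 and 2.12 to 4.37 TPM.

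The kinases and ubiquitin enzymes that set the stability of clock proteins included 11 tested genes of 14, of which Csnk2a1, a catalytic subunit of casein kinase 2, was apart, at 5.99 ± 0.14 with SRT1720 and 7.48 ± 0.65 TPM with vehicle (log2 difference −0.28, SE 0.14, adjusted p = 0.481). The largest difference in that list over all 6 libraries was in Gsk3b, at 5.16 ± 1.03 and 7.01 ± 2.27 TPM, where the groups overlapped. Its log2 difference of −0.35 was −0.15 without Vehicle 2, smaller than the −0.31 of Csnk2a1 there, and −0.56 without Vehicle 3. All 6 genes of the corepressor complex through which REV-ERB acts were tested, and Hdac3 and Gps2 were higher without overlap. Hdac3, the histone deacetylase of the complex, was at 5.95 ± 0.22 and 4.36 ± 0.22 TPM (log2 difference 0.38, SE 0.13, adjusted p = 0.355). Gps2 was at 5.06 ± 1.75 and 2.96 ± 0.34 TPM (log2 difference 0.58, SE 0.22, adjusted p = 0.379), and the difference was 0.36 without SRT1720 1. Neither passed limma's test over all genes.

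Of the clock output genes 8 of 11 were tested and 0 were apart. The largest difference was in Wee1, a mitotic kinase gene with E-boxes, at 5.25 ± 0.91 and 6.82 ± 0.97 TPM, with a log2 difference of −0.33 that was −0.20 without SRT1720 1. Glucocorticoid-induced genes were listed because Per1 is one of them. All 5 tested members had log2 differences below 0, as had 4194 of all 9287 genes tested. Their median was −0.36, and 0 were apart or called. The SE was larger than the difference in Fkbp5, Sgk1 and Dusp1, and smaller in Tsc22d3 and Klf9. Klf9, a glucocorticoid-responsive repressor, differed most, at 10.3, 4.07 and 2.35 TPM in SRT1720 1, 2 and 3 and 9.05, 12.5 and 5.68 TPM in Vehicle 1, 2 and 3. Its log2 difference of −0.75 was −1.23 without SRT1720 1 and −0.36 without SRT1720 3. The 7 tested CREB and serum immediate early genes had a median log2 difference of 0.05, and the largest was in Ier2, at 28.3 ± 12 and 18.4 ± 4.37 TPM, with overlapping groups. The log2 difference of Ier2 was 0.54, 0.23 without SRT1720 1 and 0.27 with library weights.

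The genes whose pattern over the 6 libraries was most like that of Nr1d1 were ranked by Pearson's r on log2(TPM + 1) over 9286 other tested genes. The groups make up most of this pattern, and the values are given without a test. The 5 most alike were Uhrf2 (r = 0.997), Gm9517 (r = 0.993), Slc5a3 (r = 0.988), Map3k2 (r = 0.986) and Rps27a (r = 0.985). Uhrf2, a ubiquitin ligase gene, was at 2.46 ± 0.14 with SRT1720 and 4.13 ± 0.54 TPM with vehicle, and Slc5a3, a myo-inositol transporter gene, at 1.79 ± 0.3 and 3.5 ± 0.68 TPM. Rps27a encodes a ribosomal protein with near-identical copies, so its level is uncertain. The 3 most opposite were Rbm34 (r = −0.997), Pramef8 (r = −0.991) and Tex261 (r = −0.99). Among the members Dbp (r = 0.921) was number 74 in this order, Tef (r = 0.903) number 111 and Cry1 (r = 0.825) number 306. Nr1d2 (r = 0.813) was number 338, Per2 (r = 0.754) number 548, Per1 (r = 0.676) number 833 and Cry2 (r = 0.557) number 1304. Arntl had r = −0.555 and was number 7409, and Per3, not tested, was not ranked.

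**Figure D4:**
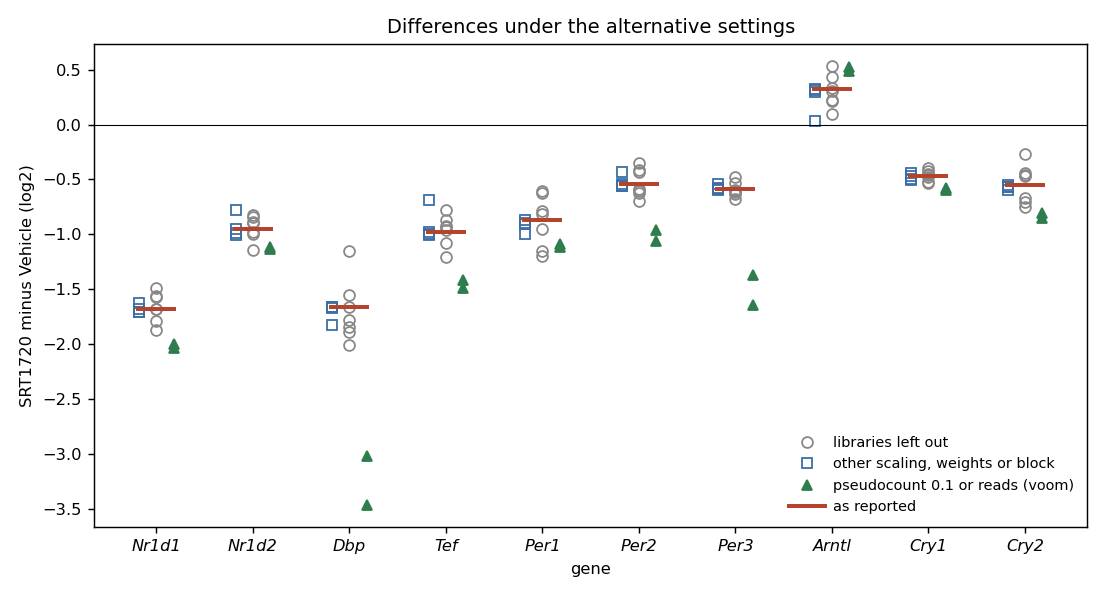
Log2 difference between SRT1720 and Vehicle (y axis) for each of the 10 clock genes (x axis) as reported and under the alternative settings, grouped as libraries left out, other scaling, weights or block, and a smaller pseudocount or recovered reads. In these settings 9 genes stay below 0 and Arntl above, and Dbp moves most, from −1.66 to −3.46 in log2 CPM of recovered reads.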

How the data were processed

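RNA from 3 SRT1720 and 3 Vehicle organoid libraries was measured, with groups and replicate numbers taken from the sample titles. The deposited TPM values were made by the authors. STAR 2.6.0 and the build GRCm38 appear, without roles, in the submitters' processing notes. The sources used here do not state the counting program, gene lengths, annotation release or use of strand. The columns summed to 161231 to 171577, so the values were read as relative levels. Of 51912 IDs, 51633 were named from GENCODE M21 on GRCm38.

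Multiplying each column by a whole number put all 6 libraries on one grid, from which whole reads were recovered for 27713 IDs above 0 (within 0.02 of a read, except in genes of many reads, where whole gene lengths were tried with wider limits). On simulated reads 98.6% of 2069 genes were recovered in full. Common factors of all 6 counts cannot be seen and understate reads. Replicates differed beyond sampling noise, with a mean chi-square per gene of at least 79.9 in every pair of a group.

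The test was limma 3.58.1 in R 4.3.3 (lmFit, then eBayes with a trend) applied to log2(TPM + 1) of the 9287 genes averaging 1 TPM or more, Benjamini-Hochberg adjusted, at a threshold of 0.05. On simulated data of 9287 genes 44% of genes shifted by 1 on the log2 scale and 83% of those shifted by 2 were called, with 12 unchanged genes. The simulated noise was independent between genes and libraries, unlike that of these libraries. Those shares are therefore not the sensitivity of the test in these data. The 10 genes and all lists were chosen with earlier results of these data known. Named genes are the 10, each tested list gene whose groups do not overlap, the largest difference of each list, and the 5 most and 3 least like Nr1d1. Genes beyond that rule are named as context, after their values were seen. Alternatives were other scalings, pseudocounts, filters, weights, a replicate block, voom, and leaving out libraries. Promoters came from RefSeq (GRCm38.p6), 250 bases before each start. Python 3.11.15, pandas 2.3.3, numpy 2.4.6, scipy 1.17.1 and matplotlib 3.10.9 were used.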

Additional observations from a re-analysis of the deposited data

How the results depend on the processing

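Under each of 15 alternatives 0 genes were called, over all genes tested and among the other clock genes. Each of the 10 genes kept the sign of its difference in the 13 alternatives other than the filters, which do not enter their description. Among these, the replicate block leaves the differences the same by construction. Their median log2 difference of −0.72 was −1.1 with a pseudocount of 0.1 and −1.12 in log2 CPM of recovered reads, and −0.8 to −0.61 with 1 library left out; a smaller pseudocount widens the differences of low genes by construction. The number lower without overlap was 7 to 9 with 1 library left out and 9 without SRT1720 1 and Vehicle 2.

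Genes at an unadjusted p under 0.05 numbered 1153, against 2028 with no filter, 498 at a mean of at least 5 TPM, 2056 with library weights and 523 to 1054 with 1 library left out, the lowest without SRT1720 2. Genes lower without overlap numbered 720, against 1537 with no filter, 314 at a mean of at least 5 TPM, 1952 without both SRT1720 1 and Vehicle 2, and 898 to 1419 with 1 library left out, where fewer libraries overlap by construction. For the 4 other clock genes without overlap, counted in both directions, these settings gave 7, 2, 18, and, with 1 library left out, 5 to 14. The counts over all genes just given are of genes lower only, so these figures are not read against them. The log2 difference of Arntl2 was −0.065 to 0.18 with 1 library left out, turning to −0.065 without Vehicle 3, −0.043 without SRT1720 2 and −0.00026 without Vehicle 2, and the cause was not tested.

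With the replicate number as a block, 1133 genes had an unadjusted p under 0.05 and 0 were called. Same-numbered libraries deviated together in 1 of 3 pairs (r = −0.2, −0.26 and 0.79), so numbers do not pair the samples, and libraries 1 and 2 did not correlate best with their own number. No fit paired SRT1720 1 with Vehicle 2 and SRT1720 2 with Vehicle 1, a match the labels do not give. The 0 genes called therefore holds for unpaired fits and for the block by number only. Depth limits Dbp most, with 38 reads in SRT1720 1.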
